A study of Mus musculus with 8 samples.

Results

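Libraries of invariant natural killer T (iNKT) cells from mouse skin had lower transcript levels for most nuclear-encoded respiratory chain subunits than libraries from spleen. Levels are relative to each library's counts, and only 3 genes passed the test one by one. In the F1 head and central stalk of the ATP synthase, 3 of 5 genes had the higher mean in skin. The genes described here are those whose symbol begins with Nduf and then a, b, c, s or v, Sdha to Sdhd, Uqcr, Cox4 to Cox8, or Atp5, and that had at least 1 count. The rule matched 85 symbols. Of these, 79 had counts, out of 22549 genes in the table, of which 11440 had counts. By name, 36 belong to complex I, 4 to complex II, 8 to complex III, 14 to complex IV and 17 to complex V, the ATP synthase. The other 6 symbols were at 0 in every library: Cox4i2, Cox6a2, Cox7b2, Cox8b, Cox8c and Ndufa4l2. At the edge of the rule, Cox7a1 entered with a summed expected count of 6.

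The study compared 2 groups, iNKT cells of skin and iNKT cells of spleen, with 4 libraries each. All animals had the genotype CCR10+/EGFP, so the spleen libraries carry the same EGFP allele of Ccr10, a skin-homing chemokine receptor gene, as the skin libraries. The labels give no age, treatment, sorting gate or animal number. Since nothing states that the libraries of a tissue came from separate animals, the p-values speak only of library-to-library spread, possibly technical. The libraries were made from total RNA by full-length SMART-Seq v4 amplification, a method for very few cells, and held 7191130 to 9791970 expected counts.

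The respiratory chain passes electrons from NADH (complex I) and succinate (complex II) to ubiquinone, from there through complex III and cytochrome c to complex IV, where oxygen is reduced. Complexes I, III and IV pump protons out of the mitochondrial matrix, and the ATP synthase lets them flow back through its membrane part, Fo, which turns the stalk inside the catalytic head, F1. Most subunits are encoded in the nucleus and are built, with assembly factors, onto a few subunits that mitochondrial ribosomes make from mitochondrial DNA.

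Levels are given as CPM, the count of a gene scaled to library size, with library sizes corrected by trimmed mean of M-values (TMM). Differences are log2 fold changes of skin over spleen with an approximate standard error (SE). This SE is the size of the log2 fold change divided by the square root of the test's F statistic. Tests are edgeR's quasi-likelihood test with Benjamini-Hochberg adjustment over the 6920 genes that passed a filter on low counts, and a gene was called at an adjusted p under 0.05. Of the members, 76 passed the filter. Cox6b2 (only in spleen replicate 3, at 10.3 CPM), Cox7a1 (only in spleen replicate 4, at 0.892 CPM) and Atp5s did not.

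Between 5302 and 10094 genes were detected per library, and the smallest detectable level, 3 counts, lay between 0.292 and 0.454 CPM. Values of 0 were more frequent in skin: 29.4% ± 3.63 (SD, n = 4) of the tested genes were at 0 per library there, and 11.4% ± 10.2 per spleen library. For the tested members the shares were 7.57% ± 1.66 and 0.329% ± 0.658. In skin, at mean levels of 50 to 100 CPM, 12.2% of the members' values were 0, against 30.4% for all tested genes. The iNKT and T cell markers in the table (7 of 7, Zbtb16, Cd3e and Cd3d among them) were detected in both tissues. They summed to 2269 to 2879 CPM in skin and 3266 to 4119 in spleen. Cd3d was called lower in skin (2.36-fold, edgeR adjusted p = 0.025), and Cd3g and Lat were lower without overlap. Zbtb16 and Cd4 were lower with overlap, and Cd3e and Cd247 higher with overlap. Keratinocyte markers summed to 273 to 1032 CPM in skin (9 of 12 detected; Krt1, Dsp and Trp63 at 0) and 0 to 29.5 in spleen (3 of 12; Krt5 and Krt14 at 0). Myeloid and dendritic markers summed to 423 to 652 CPM in skin and 110.3 to 408 in spleen (7 of 10 in each; Csf1r and Cd207 at 0). B cell markers were at 0 in skin and at 31.5 to 166 CPM in spleen (5 of 6), and red cell markers at 0 to 0.424 and 111 to 228 CPM. Fibroblast markers reached 168 CPM in skin and were at 0 in spleen (3 of 8; Col1a2, Col3a1 and Pdgfra at 0), endothelial markers reached 77.0 and 57.4 CPM (1 of 6), and mast cell markers were at 0 in both. Markers of gamma-delta and CD8 T cells summed to 30.4 to 389 CPM in skin and 6.43 to 49.99 in spleen (3 of 6 in the table, 2 detected in skin). All differences below run beside these, whose part in them was not tested. In such bulk libraries fewer cells of a type and less RNA per cell cannot be told apart.

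Of the 76 members that passed the filter, 68 had a lower level in skin (89.5%, against 57.8% of all tested genes) and 8 a higher one. Their median log2 fold change was -1.19 (range -3.67 to 0.98), and that of all tested genes -0.29. Single genes rarely passed the test: 3 members fell (Sdha, Sdhb and Atp5j) and 0 rose, while 3.58% of all tested genes were called lower and 1.85% higher. The members' called share of 3.95% is near that background. At an unadjusted p under 0.05, 17 members were lower and 2 higher, beside 7.33% and 5.1% of all tested genes. DESeq2 called 18 members lower (23.7%, against 6.46% of all genes) and 2 higher (4.26% of all genes). Limma-voom called 3 lower (3.95%, under the 7.23% of all genes) and 1 higher (2.99% of all genes). In 37 members (48.7%) every skin library lay below every spleen library, which was so for 13.4% of all tested genes. In 2 members (2.63%), Atp5b and Atp5d, every skin library lay above, against 6.11% of all tested genes.

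A gene can pass the filter through the tissue where it is high, so the same description was made on other sets. Over all 79 members, with no filter, 70 were lower in skin. Among the 2237 genes detected in all 8 libraries, the median log2 fold change was 0.03 and 49.1% were lower in skin. The 55 members among them had a median of -1.03, 48 were lower in skin, and 22 (40%) were lower without overlap, against 12.3% of the 2237. Of the 55, 2 (3.64%) were higher without overlap, against 11.3% of the 2237. The 3 called members were among them, while 2.1% of the 2237 genes were called lower and 4.92% higher. With 1 library left out at a time, 88.3% to 92.2% of the tested members were below 0. The share lower without overlap was then 49.4% to 58.4%, against 14.3% to 18.2% of all genes. The calls were less stable, with 0 to 3 members called lower. Under limma-voom the median of all genes moved to -2.06 and lay below that of the members, -1.64.

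**Figure D1:**
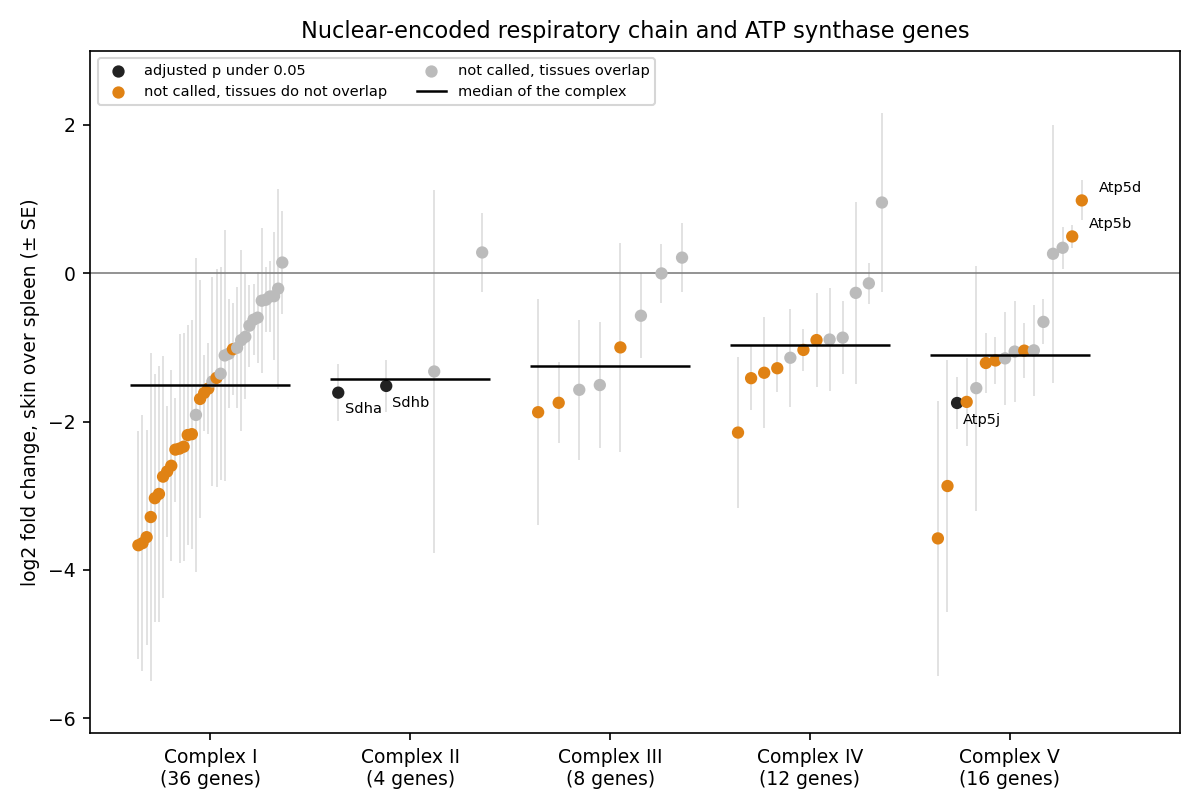
The log2 fold change of skin over spleen (vertical axis) with its SE for each of the 76 tested members, ordered within complexes I to V. Black points are the 3 called genes, orange points genes whose tissues do not overlap, and bars the medians, from -1.51 for complex I to -0.97 for complex IV; Atp5b and Atp5d lie above 0.

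Summed over its genes, complex I showed the widest gap between the tissues. Its skin libraries held 1954, 3105, 2366 and 2182 CPM and its spleen libraries 5825, 5772, 6398 and 5892 CPM, a mean of 2402 ± 498 against 5972 ± 288 (SD, n = 4). The sum was 2.49-fold lower in skin, with no overlap. Complex II held 576, 857, 489.9 and 610.3 CPM in skin and 1177, 1092, 1059.5 and 1310.4 CPM in spleen, 1.83-fold lower in skin. Complex III held 1021, 1037, 828 and 1303 CPM in skin and 2013, 1622, 2282 and 1749.6 CPM in spleen, also 1.83-fold lower. Complex IV held 1486, 1813, 1699 and 2027 CPM in skin and 3550.1, 3109, 3200.2 and 3359 CPM in spleen, 1.88-fold lower. In these 4 complexes the highest skin library stayed below the lowest spleen library. Complex V differed: its sums of 7154, 7506, 6933 and 5111 CPM in skin and 7293, 6924, 7758 and 7243 CPM in spleen overlapped, with a log2 ratio of -0.13. A sum is led by its most abundant genes, and Atp5a1 and Atp5b made up 62.4% ± 2.71 of the complex V sum in skin and 42.4% ± 3.77 in spleen. Without them, an alternative chosen after seeing the data, complex V was 2498 ± 347 CPM in skin and 4202 ± 225 in spleen, 1.68-fold lower without overlap. Sums over genes carry no test here.

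**Figure D2:**
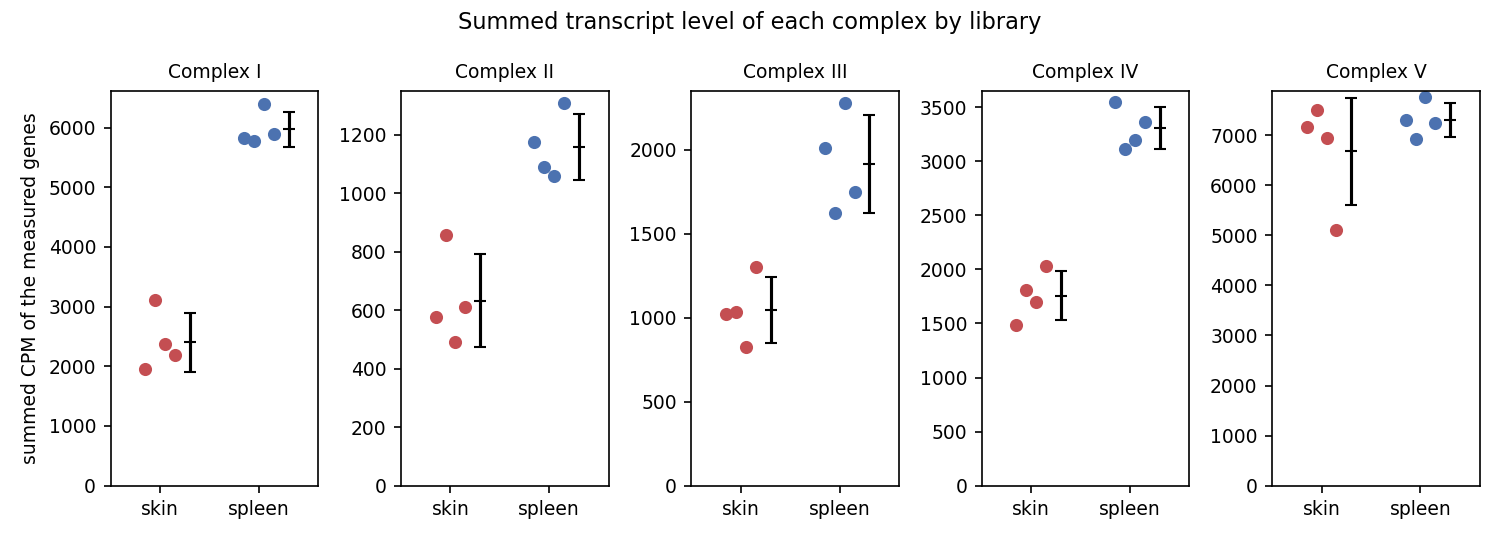
Summed CPM of the genes of each complex (vertical axes, each from 0) in the 4 skin (red) and 4 spleen (blue) libraries, with mean ± SD. The tissues separate for complexes I to IV and overlap for complex V, where skin replicate 4 is lowest at 5111 CPM.

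Complex I, NADH dehydrogenase, is the largest complex of the chain. Of its 36 members 35 were lower in skin, with a median log2 fold change of -1.51. In 19 (52.8%) the skin level was lower without overlap, against 13.4% of all tested genes. None was called by edgeR. At an unadjusted p under 0.05, 6 were lower, beside 7.33% of all tested genes. DESeq2 called 8 lower, beside 6.46% of all genes, and limma-voom 0, beside 7.23%. The 7 nuclear core subunits, which carry the flavin and iron-sulfur centres, were all lower, with a median of -1.08. Only Ndufs7 (14.3%) was lower without overlap. The 29 accessory subunits, which surround the core and serve its assembly and stability, had a median of -1.69, and 18 (62.1%) did not overlap. Whether core and accessory subunits differ was not tested.

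Ndufv3, an accessory subunit beside the NADH-binding site, had the smallest adjusted p of the complex. It was at 23.2, 109, 34.2 and 34.6 CPM in skin and 397, 236, 260 and 149 CPM in spleen, a difference of -2.38 ± 0.70 (SE) in log2 at an adjusted p of 0.104 in edgeR. The 4 spleen libraries were all higher than the 4 skin libraries. Ndufa3, an accessory subunit of the membrane arm, was at 23.6, 12.2, 27.0 and 48.9 CPM in skin and at 192, 174, 172 and 174 CPM in spleen. It had the lowest coefficient of variation of the tested members in spleen, 5.25%, and a skin level 6.37-fold lower (edgeR adjusted p = 0.153). The lowest fold change of all members was that of Ndufc1, a small membrane-arm subunit, at 4.09, 7.59, 9.99 and 0.565 CPM in skin and 43.8, 86.5, 77.2 and 75.5 CPM in spleen. Its difference of -3.67 had an SE of 1.53, and its adjusted p was 0.345 in edgeR. Ndufc1 was chosen after its values were seen, as was Ndufb9, with 38.0, 0, 23.0 and 25.0 CPM in skin and 234, 340, 263 and 177 CPM in spleen (edgeR adjusted p = 0.324; 0.0488 without skin replicate 2). Low skin counts thus went with wide errors, although all 4 skin libraries were far below all 4 spleen libraries.

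Abundant members of complex I differed less. Ndufa4, grouped here by its name although its protein is now assigned to complex IV, was at 111, 156, 243 and 271 CPM in skin and 164, 244, 342 and 252 CPM in spleen (log2 fold change -0.36, SE 0.44). Ndufb11, a membrane-arm subunit, was at 61.5, 215, 198 and 107 CPM in skin and 351, 244, 129 and 225 CPM in spleen (-0.71, SE 0.55). The tissues overlapped in both. Ndufa11, at 0.14 (SE 0.70), was the complex I member above 0. The most variable members were Ndufs4 within skin, at 0, 28.5, 0 and 131 CPM, and Ndufs1 within spleen, at 115, 70.1, 28.5 and 219 CPM.

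Complex II, succinate dehydrogenase, also serves the citric acid cycle and has no subunit encoded in mitochondrial DNA. Its 2 catalytic genes fell in skin, beside 3.58% of all tested genes, and its 2 membrane anchor genes were not called. Sdha, the flavoprotein that oxidises succinate, was at 92.3, 89.5, 187 and 215 CPM in skin and 454, 372, 451 and 505 CPM in spleen. It was 3.05-fold lower in skin, or -1.61 ± 0.39 (SE) in log2, at an adjusted p of 0.0485 in edgeR. Sdhb, the iron-sulfur subunit, was at 111, 90.9, 159 and 146 CPM in skin and 377, 347, 316 and 415 CPM in spleen. It was 2.87-fold lower, or -1.52 ± 0.35 (SE) in log2, at an adjusted p of 0.0473 in edgeR. For both, the highest skin library lay well under the lowest spleen library. Both calls sit at the threshold: without 1 library at a time the edgeR adjusted p of Sdha was 0.0477 to 0.144, under the threshold only without skin replicate 4. That of Sdhb was 0.0616 to 0.150, so leaving out any library ended the call. DESeq2 called both (adjusted p of 0.00547 and 0.000341), limma-voom only Sdha (0.0339), and edgeR with DESeq2 size factors only Sdhb (0.0477). The anchors Sdhc and Sdhd hold the complex in the membrane and bind ubiquinone and haem. Sdhc was at 95.8, 0, 32.1 and 0.282 CPM in skin and 100.1, 0, 112 and 109 CPM in spleen, and Sdhd at 276, 677, 112 and 249 CPM in skin and 246, 373, 181 and 283 CPM in spleen. The tissues overlapped in both anchors, with log2 fold changes of -1.32 (SE 2.45) for Sdhc and 0.28 (SE 0.53) for Sdhd.

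Sequences before the start sites of the 2 called catalytic genes are shown because the genes moved together while their promoters differ in 1 feature. NRF-1 and the ETS factor GABP are known regulators of respiratory chain genes. The RefSeq table of mouse promoters (GRCm38.p6, another build than the mm9 of the counts) held 67 of the 79 members. In the 250 bases before a start, on either strand, the letters of an NRF-1 element (GCGCA, any base, GCGC) were found in 13 of the 67 (19.4%) and in 4.23% of the 27025 genes with a window. The letters CCGGAAG of an ETS element were found in 12 members (17.9%) and 7.83% of genes, and either one in 22 members (32.8%) and 11.3% of genes. The genes with a window were taken whether or not they had counts here, while all members had counts. The shares are therefore not set against expressed genes alone. Sdha holds the NRF-1 letters at 3 places on the minus strand of chromosome 13, shown in capitals with 10 bases on each side, at chr13:74350319-74350348, chr13:74350276-74350305 and chr13:74350231-74350260. In the GENCODE annotation the letters of the first place lie in an exon of Ccdc127, the neighbour on the other strand. Those of the second place lie in no exon, and those of the last in the longest form of the first Sdha exon.
Sdha first place: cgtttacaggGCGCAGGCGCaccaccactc
Sdha second place: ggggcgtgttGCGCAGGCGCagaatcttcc
Sdha last place: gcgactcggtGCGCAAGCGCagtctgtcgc
The window of Sdhb holds neither set of letters; its stretch outside annotated exons is chr4:140961021-140961202, plus strand.
Sdhb: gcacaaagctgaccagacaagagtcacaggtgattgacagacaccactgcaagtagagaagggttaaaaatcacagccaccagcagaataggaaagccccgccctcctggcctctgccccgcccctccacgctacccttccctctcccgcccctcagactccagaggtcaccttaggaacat
Members with the NRF-1 letters had a median log2 fold change of -1.35 (n = 13) and members without them -1.15 (n = 51). For the ETS letters the medians were -0.96 (n = 12) and -1.35 (n = 52). A match of letters is a description of the sequence and no measurement of binding.

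Complex III, ubiquinol-cytochrome c reductase, held 8 members, of which 7 were lower in skin, with a median of -1.25. Of the 8, 3 (37.5%) were lower without overlap, against 13.4% of all tested genes. None was called. At an unadjusted p under 0.05, 1 was lower, beside 7.33% of all tested genes. DESeq2, which called 6.46% of all genes lower, called the same gene, Uqcrc1, a core protein of the matrix side. Limma-voom called 0. Uqcrc1 was at 71.8, 267, 79.2 and 317 CPM in skin and 657, 405, 864 and 539 CPM in spleen. It was 3.35-fold lower in skin without overlap (log2 fold change -1.75, SE 0.54, edgeR adjusted p = 0.131). Uqcrc2, the other core protein, was at 118, 95.5, 166 and 0 CPM in skin and 219, 177, 184 and 180 CPM in spleen, also without overlap (-0.999, SE 1.41). Uqcr11, a small accessory subunit, also did not overlap, at -1.87. The Rieske iron-sulfur protein Uqcrfs1, which hands electrons to cytochrome c1, was at 384, 230.4, 145 and 372 CPM in skin and 215, 306, 336 and 121 CPM in spleen. Its difference was 0.21 (SE 0.46). Uqcrh, the hinge protein, was at 235, 256, 182 and 159 CPM in skin and 284, 151, 203 and 195 CPM in spleen, with means of 208 ± 45.2 and 208 ± 55.7 CPM. In these last 2 genes the libraries of both tissues were mixed throughout.

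Complex IV, cytochrome c oxidase, had 12 tested members, of which 11 were lower in skin, with a median of -0.97. Without overlap 6 (50%) were lower, against 13.4% of all tested genes. None was called. At an unadjusted p under 0.05, 3 were lower, beside 7.33% of all tested genes. DESeq2 called 4 lower, beside 6.46% of all genes, and limma-voom 0, beside 7.23%. Cox4i1, the broadly expressed form of the subunit at which ATP slows the oxidase, came closest. It was at 404, 278, 203 and 171 CPM in skin and 749, 632, 695 and 487 CPM in spleen, 2.43-fold lower (log2 fold change -1.28, SE 0.32, edgeR adjusted p = 0.0543; 0.0425 without skin replicate 1). Cox8a was at 169, 224, 312 and 230.0 CPM in skin and 556, 449.9, 456 and 451 CPM in spleen (-1.03, SE 0.28, edgeR adjusted p = 0.0696). Cox6c was at 104, 98.5, 222 and 88.5 CPM in skin and 283, 429, 291 and 366 CPM in spleen (-1.41, SE 0.43, edgeR adjusted p = 0.115). All 3 encode small membrane-spanning subunits, and in all 3 the tissues were apart. Cox7c, chosen after its values were seen, was 4.43-fold lower in skin without overlap, at 30.6 ± 16.9 against 136 ± 22.4 CPM.

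Several complex IV subunits have tissue-specific forms, and in both tissues only the broadly expressed forms were abundant. Cox4i2, Cox6a2 and Cox8b, forms of lung and of heart and muscle, were at 0, the muscle form Cox7a1 and the testis form Cox6b2 had counts in 1 spleen library each. Of the broad forms, Cox6a1 was nearly level, at 253, 367, 423 and 329 CPM in skin and 406, 299, 344 and 459 CPM in spleen (-0.14, SE 0.28). Cox7a2 was at 11.7, 97.5, 92.4 and 208 CPM in skin and 315, 237, 242 and 243 CPM in spleen (-1.34, SE 0.75), without overlap. Cox6b1 was at 162, 157, 22.7 and 176 CPM in skin and 193, 262, 295 and 217 CPM in spleen (-0.90, SE 0.63), also without overlap. Cox7a2l, which helps join complexes III and IV, was at 1.06, 102, 59.0 and 287 CPM in skin and 67.5, 107, 128 and 237 CPM in spleen. Cox4nb, which the rule matched by name, encodes a protein of the endoplasmic reticulum and not a subunit. It was at 41.2, 38.8, 40.4 and 196 CPM in skin and 39.2, 53.2, 35.2 and 35.5 CPM in spleen.

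**Figure D3:**
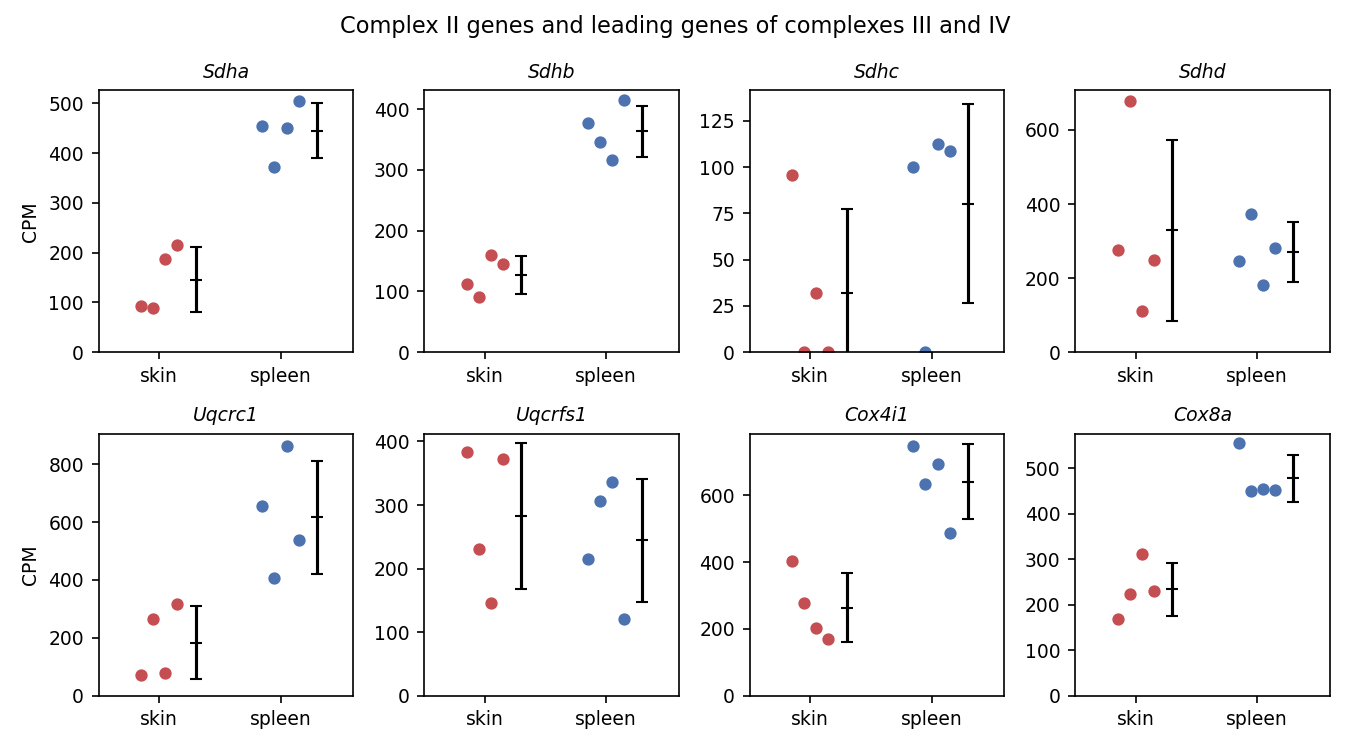
CPM (vertical axes, each from 0) of the 4 complex II genes and of Uqcrc1, Uqcrfs1, Cox4i1 and Cox8a in each skin (red) and spleen (blue) library, with mean ± SD. Sdha, Sdhb, Uqcrc1, Cox4i1 and Cox8a are apart in the 2 tissues, and Sdhc, Sdhd and Uqcrfs1 overlap.

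Complex V, the ATP synthase, had members in both directions, and whether its parts differ was not tested. Of its 16 tested members 12 were lower in skin and 4 higher. Without overlap, 7 (43.75%) were lower, against 13.4% of all tested genes. Atp5b and Atp5d (12.5%) were higher without overlap, against 6.11%. In edgeR 1 gene fell (Atp5j) and 0 rose, beside 3.58% and 1.85% of all tested genes. At an unadjusted p under 0.05, 5 were lower and 2 higher, beside 7.33% and 5.1%. DESeq2 called 3 lower and 2 higher, beside 6.46% and 4.26%. Limma-voom called 2 lower and 1 higher, beside 7.23% and 2.99%. All 10 tested genes of the membrane part and the peripheral stalk were lower, and of the 5 genes of the F1 head and central stalk 3 were higher and 2 lower.

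The F1 head holds the catalytic sites on its beta subunits, which alternate with alpha subunits. Atp5b, the beta subunit, was at 2603, 2519, 2282 and 2206 CPM in skin and 1404, 1523, 2169 and 1716 CPM in spleen. Every skin library was higher, by 0.50 ± 0.16 (SE) in log2, at an adjusted p of 0.15 in edgeR and 0.00475 in DESeq2, and its coefficient of variation in skin, 7.86%, was the lowest of the tested members. Atp5d, the delta subunit of the central stalk, was at 794, 810.2, 1207 and 512 CPM in skin and 397, 471, 394 and 421 CPM in spleen. The difference was 0.98 ± 0.27 (SE) in log2, at an adjusted p of 0.0766 in edgeR, 0.018 in DESeq2 and 0.0349 in limma-voom, again with every skin library higher. Without skin replicate 4 its adjusted p was 0.0427 in edgeR. Atp5a1, the alpha subunit, was at 2032, 2057, 2191 and 824 CPM in skin and 1367, 1288, 1414 and 1528 CPM in spleen (0.34, SE 0.28, edgeR adjusted p = 0.915). Of its skin libraries 3 were above all spleen libraries and replicate 4 was below them. Without that library the adjusted p was 0.0575. The remaining F1 genes were lower in skin: Atp5c1, the gamma subunit of the rotating stalk, was at 314 ± 108 CPM in skin and 494 ± 74.1 in spleen, with overlap. Atp5e, the epsilon subunit, was at 3.48, 0, 56.5 and 29.5 CPM in skin and 179, 113, 179 and 184 CPM in spleen, without overlap (-2.87, SE 1.70). Both were chosen after their values were seen, to complete the head.

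The stretch before the Atp5b start outside annotated exons is shown because the gene ran against most members. It lies at chr10:128083057-128083272 on the plus strand of GRCm38.p6, and its window holds neither the NRF-1 nor the ETS letters.
Atp5b: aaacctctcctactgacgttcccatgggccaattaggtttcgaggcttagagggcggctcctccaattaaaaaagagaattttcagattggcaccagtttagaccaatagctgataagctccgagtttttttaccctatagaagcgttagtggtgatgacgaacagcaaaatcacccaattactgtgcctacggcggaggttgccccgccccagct

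The c ring is the rotor that protons turn, and 3 genes encode the same mature protein. Atp5g3 was at 216, 351, 136 and 247 CPM in skin and 568, 598, 480.2 and 502 CPM in spleen, without overlap (-1.18, SE 0.32, edgeR adjusted p = 0.0726; 0.0324 by DESeq2 and 0.0467 by limma-voom). Atp5g1 was at 108, 236, 155 and 19.1 CPM in skin and 372, 225, 254 and 226 CPM in spleen, and Atp5g2 at 61.0, 0, 99.1 and 20.3 CPM in skin and 55.7, 110.2, 197 and 165 CPM in spleen. Both overlapped. Since the 3 genes share sequence, reads may be split between them. Their sum was 412 ± 126 CPM in skin and 938 ± 42.8 in spleen, with no overlap.

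The peripheral stalk holds the head still against the turning ring. Atp5j, one of its subunits, was at 105, 188, 90.02 and 141 CPM in skin and 442, 524, 396 and 399 CPM in spleen. It fell 3.36-fold, or -1.75 ± 0.35 (SE) in log2, at an adjusted p of 0.0396 in edgeR, the smallest adjusted p among the members. Its highest skin library held 188 CPM and its lowest spleen library 395.5 CPM. Without 1 library at a time the edgeR adjusted p was 0.0328 to 0.137, under the threshold only without skin replicate 2 or skin replicate 4. DESeq2 and limma-voom called it too (0.000164 and 0.0355), and with no filter the edgeR value was 0.0826. Atp5j starts beside Gabpa on the other strand, and no source used here states strand-aware counting, so reads of the 2 genes near their starts may be mixed. Atp5f1 was at 165 ± 83.9 CPM in skin and 380.5 ± 42.2 in spleen and Atp5h at 193 ± 82.8 and 398 ± 42.9, both without overlap and with edgeR adjusted p values of 0.168 (0.0489 without skin replicate 4) and 0.203. Atp5o overlapped, at 141 ± 94.3 and 313 ± 115 CPM. Of the other Fo genes, chosen like these 3 to complete the complex, Atp5k was at 4.29 ± 2.96 and 51.3 ± 14.2 CPM and Atp5j2 at 74.8 ± 33.6 and 249 ± 88.0, both without overlap, and Atp5l overlapped. The symbols Atp5s and Atp5sl name no subunit: Atp5s encodes coupling factor B and Atp5sl a complex I assembly protein. Atp5s was at 0 in skin and at 0, 39.7, 19.5 and 5.50 CPM in spleen, and Atp5sl at 43.0, 193, 0 and 67.6 CPM in skin and 94.9, 35.6, 45.3 and 77.3 CPM in spleen.

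**Figure D4:**
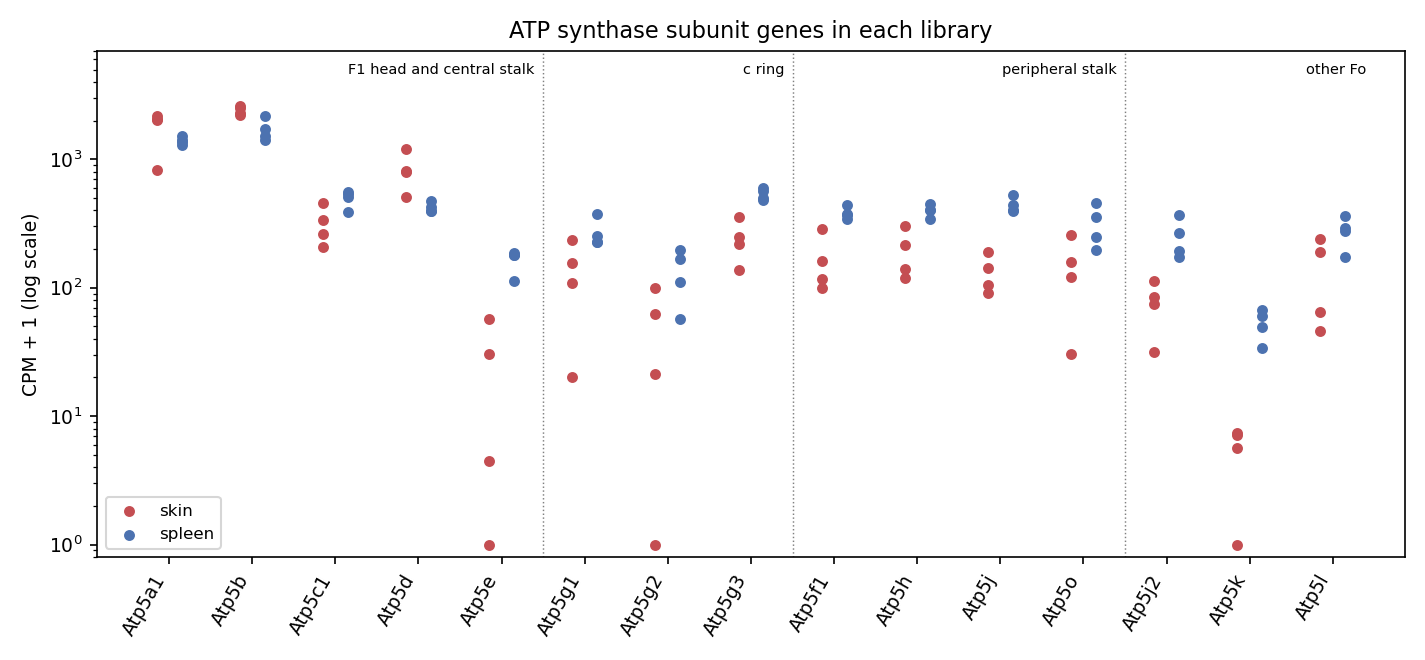
CPM + 1 (vertical axis, log scale) of the 15 ATP synthase subunit genes in each skin (red) and spleen (blue) library, grouped by part of the enzyme. Atp5b and Atp5d are higher in every skin library, and Atp5j, Atp5g3, Atp5f1, Atp5h, Atp5j2, Atp5k and Atp5e lower in every one.

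Compared per kilobase of transcript, so that genes can be set against each other, the order of levels also changed. In skin the highest were Atp5b (1254 CPM per kb), Atp5d (892), Atp5a1 (690.3), Cox6a1 (601) and Uqcrh (438). In spleen they were Atp5b (889), Cox8a (869.6), Cox4i1 (849), Atp5g3 (748) and Cox6a1 (660.0). Atp5a1 and Atp5b together held 40.8%, 40.2%, 42.2% and 38.4% of the complex V level per kilobase in the skin libraries and 18.5%, 20.1%, 24.1% and 22.6% in the spleen libraries. The shares did not overlap, skin replicate 4 included, and were set up after the values were seen. Across the 76 tested members the log2 fold change had a Spearman rho of 0.25 with transcript length and 0.18 with the spleen level. These genes share libraries and are not independent.

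Other mitochondrial genes were counted from lists of pathway genes. Assembly factors, which build the complexes, had 45 genes listed and 32 tested. Of these 27 were lower in skin (84.4%, against 57.8% of all tested genes), with a median log2 fold change of -1.74. Without overlap 10 were lower (31.25%, against 13.4% of all tested genes). In edgeR 2 fell (Ndufaf1 and Ndufaf3), beside 3.58% of all tested genes. Only 2 of the list were detected in all 8 libraries, so the median rests largely on genes with values of 0. DESeq2 called 3 of the list lower and limma-voom 4, beside 6.46% and 7.23% of all tested genes. Mitochondrial ribosomal proteins, which make the subunits encoded in mitochondrial DNA, had 76 listed and 71 tested. Of these 60 were lower (84.5%, against 57.8% of all tested genes), with a median of -1.42, and 17 without overlap (23.9%, against 13.4%). In edgeR 2 fell (Mrpl48 and Mrps31), a share below the 3.58% of all tested genes. Here 12 of the list were detected in all 8 libraries, so this median too rests largely on genes with values of 0. DESeq2 called 2 lower and limma-voom 8, beside the same shares of 6.46% and 7.23%. All 4 called genes were undetected or nearly so in skin. They passed the filter through spleen, where they were high. They would not enter a fit of genes present in 3 or more libraries of each tissue. The spleen libraries that let them in thus also gave the calls. The fold bounds given for them cover counting error only. In skin, 30.4% of all tested genes' values were 0 at mean levels of 50 to 100 CPM, and 39.9% at 20 to 50 CPM. Ndufaf1, which starts complex I assembly, was at 0 in the 4 skin libraries and at 51.5, 200.3, 30.2 and 30.5 CPM in spleen, at least 202-fold lower with 3 counts in each library as the floor (adjusted p of 0.0491 in edgeR). Ndufaf3, another complex I assembly factor, was at 0 in skin and at 54.0, 71.3, 59.6 and 35.2 CPM in spleen, at least 142-fold lower (edgeR adjusted p = 0.0473). Mrps31, of the small ribosomal subunit, was at 0 in skin and 64.8, 26.3, 33.2 and 45.9 CPM in spleen, at least 109.9-fold lower (edgeR adjusted p = 0.0473). Mrpl48, of the large one, was at 0, 0.11, 0 and 0 CPM in skin and 51.2, 66.2, 59.1 and 37.2 CPM in spleen (edgeR adjusted p = 0.0473). Each of the 4 lost its call in each of the 8 fits without 1 library.

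The other lists did not share that median. Pyruvate entry and the citric acid cycle, with 21 listed and 19 tested, had a median of -0.22, near the -0.29 of all tested genes. Of these 15 were lower (78.9%, against 57.8% of all tested genes), 2 without overlap (10.5%, under the 13.4% of all tested genes), and 0 were called by edgeR. At an unadjusted p under 0.05, 1 was lower, beside 7.33% of all tested genes. DESeq2 and limma-voom called 1 lower each, beside 6.46% and 7.23%. Other subunits, electron carriers and exchangers, with 18 listed and 16 tested, also had a median of -0.22. Of these 9 were lower (56.25%, against 57.8%), 3 without overlap (18.75%, against 13.4%), and 0 were called by edgeR. At an unadjusted p under 0.05, 2 were higher and 1 lower, beside 5.1% and 7.33% of all tested genes. DESeq2 called 1 higher, beside 4.26%, and limma-voom 2 higher and 1 lower, beside 2.99% and 7.23%. Within that list, Cycs, the cytochrome c that carries electrons from complex III to IV, was at 162, 359, 208 and 135 CPM in skin and 398, 443, 543 and 433 CPM in spleen, without overlap (-1.07, SE 0.36, edgeR adjusted p = 0.172). Cyc1, the cytochrome c1 of complex III, which the rule does not match, was at 280.3 ± 190 CPM in skin and 246 ± 51.8 in spleen (0.19, SE 0.51). Ndufab1, the acyl carrier subunit of complex I, also outside the rule, was at 16.7, 0, 0 and 0 CPM in skin and 137, 36.7, 77.0 and 71.4 CPM in spleen (-4.27, SE 2.67). The adenine nucleotide exchanger Slc25a5, chosen after its values were seen, was at 2275, 2413, 2132 and 1235 CPM in skin and 882, 951, 1284 and 1289 CPM in spleen (0.87, SE 0.24, edgeR adjusted p = 0.0787). Like Atp5a1, it was higher in 3 skin libraries than in any spleen library, and its lowest skin library was replicate 4.

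Regulators of mitochondrial biogenesis, with 17 listed and 10 tested, had a median of 0.73. In skin 7 were higher and 3 lower (30%, against 57.8% of all tested genes), and 0 were called by edgeR. At an unadjusted p under 0.05 there was 1 higher, beside 5.1% of all tested genes. DESeq2 and limma-voom called 1 higher each, beside 4.26% and 2.99%. Ppargc1a, a coactivator of respiratory genes, was at 0 in all 8 libraries. Nrf1, the factor whose letters are described above, was at 184 ± 145 CPM in skin and 146 ± 54.8 in spleen (0.33). Gabpa, the DNA-binding subunit of GABP, was at 115.7, 55.7, 110.8 and 0 CPM in skin and 0, 0, 35.2 and 33.3 CPM in spleen (2.04, SE 2.65). Tfam, which packs and transcribes mitochondrial DNA, was at 51.9 ± 33.8 and 68.0 ± 56.2 CPM (-0.39). In all 3 genes the tissues overlapped. Esrra, a nuclear receptor that acts on respiratory genes, did not pass the filter and was detected in skin only in replicate 1, at 48.3 CPM. The 13 subunits encoded in mitochondrial DNA were not analysed here.

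**Figure D5:**
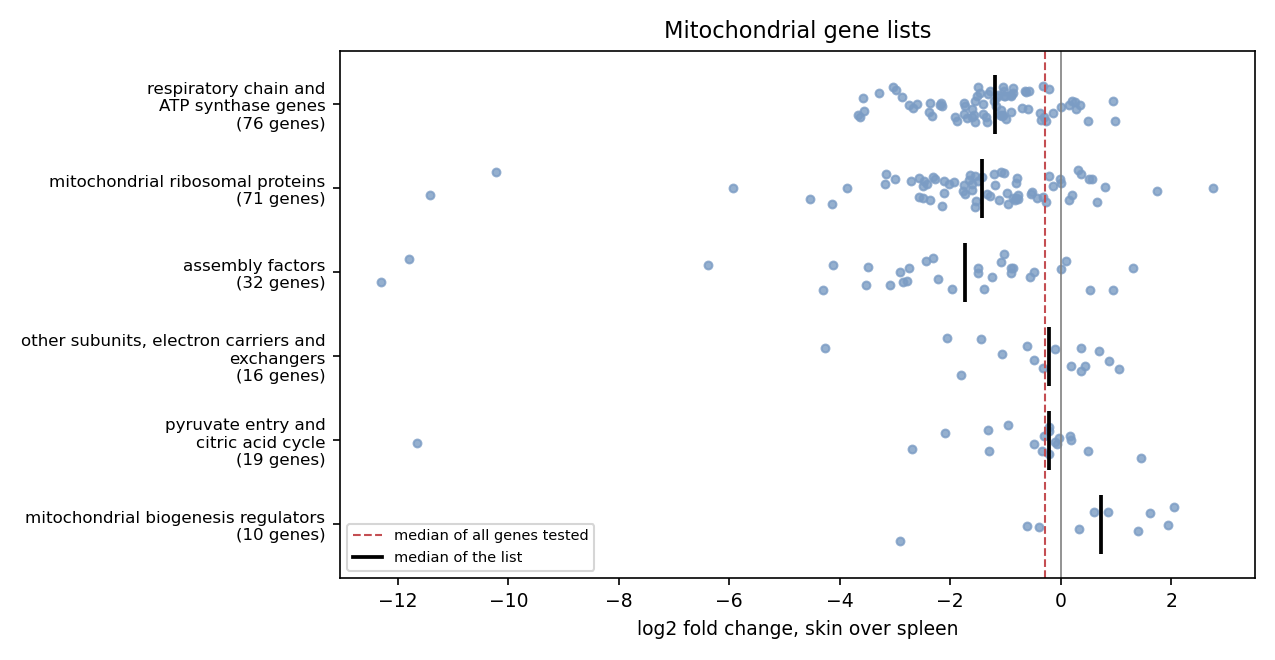
Log2 fold change of skin over spleen (horizontal axis) of every tested gene in 6 mitochondrial lists, with the list's median (black) and the median of all tested genes (dashed, -0.29). The members, ribosomal proteins and assembly factors have medians of -1.19, -1.42 and -1.74, and biogenesis regulators one of 0.73. Detected in all 8 libraries were 55 members, 12 ribosomal proteins, 2 assembly factors and 2 regulators.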

How the data were processed

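Per the submitters' processing notes, the authors used RSEM with the mm9 build, FastQC and DESeq2 1.16.1, and per the file headers they deposited 1 table of expected counts per gene, neither normalised nor filtered. The sources used here name no aligner, annotation or strand setting. RSEM shares reads among near-identical copies, so genes with close paralogs or pseudogenes, the c ring and small Cox and Nduf genes among them, are uncertain.

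Expected counts were rounded and fitted in R 4.3.3 with edgeR 4.0.16 (filterByExpr on tissue, TMM, robust quasi-likelihood, tissue only) on all 8 libraries. The common dispersion was 2.94, with 6 residual degrees of freedom. Depth per library is given with the results; floors cover counting error only. No 2 libraries were copies: replicates differed by a chi-square of at least 111.8 per degree of freedom. Alternatives were DESeq2 1.42.0, limma 3.58.1 voom with quality weights, DESeq2 size factors, upper-quartile scaling, 2 other filters, a replicate block and leaving out each library. The steps were run on simulated data. The check they had to pass covered only large changes at a spread far below that of these data. It therefore does not measure how many true differences the fit would miss here.

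The members and lists were chosen with earlier results of these data known, and no list was tested as a set. Genes named are the called members; up to 8 members each way with the smallest adjusted p and no overlap; the 3 most abundant of each complex; isoforms; the Sdh genes; matched symbols that are no subunits; called list genes and 8 chosen regulators and carriers; and members with extreme variation. One gene that this rule names is not reported here. Transcript lengths are medians of protein-coding transcripts in the GENCODE annotation of GRCm38, and promoters are from RefSeq. Of the value columns, 0 were left unused.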

Additional observations from a re-analysis of the deposited data

Results flagged for a closer look

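In 15 of 165 groups of 4 libraries examined (9.09%) 1 library lay far from the other 3, by a gap test at the 95% level. Chance gives about 1 in 20. The 15 were all of members, while the 165 also hold groups that are not single members. In skin replicate 4, Atp5a1 was at 824 CPM (others 2032 to 2191) and Cox4nb at 196 CPM (38.8 to 41.2). In skin replicate 3, Cox6b1 was at 22.7 CPM (157 to 176) and Cox6c at 222 CPM (88.5 to 104). In skin replicate 2, Ndufa9 was at 354 CPM (81.6 to 84.3) and Ndufv3 at 109 CPM (23.2 to 34.6). In spleen replicate 1, 5 members were high: Cox7a2 at 315 CPM (237 to 243), Cox8a at 556 CPM (449.9 to 456), Ndufa3 at 192 CPM (172 to 174), Ndufb5 at 223 CPM (126 to 139) and Uqcrc2 at 219 CPM (177 to 184). In spleen replicate 2, Atp5e was at 113 CPM (179 to 184) and Sdhc at 0 CPM (100.1 to 112). Cox6b2 was at 10.3 CPM in spleen replicate 3 and Cox7a1 at 0.892 CPM in spleen replicate 4, each with the others at 0. With all others at 0 the gap test flags any value above 0, so both flags were fixed in advance. They are counted among the 15.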

How the results depend on the processing

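Counts of calls moved with the method and the number of libraries, while the direction of the members moved little. Against 128 genes higher and 248 lower in skin, DESeq2 called 295 and 447, limma-voom 207 and 500, and fits without 1 library 47 to 102 and 17 to 111. Genes lower numbered 48 with no filter and 42 with a detection filter (present in 3 or more libraries in both tissues). Members called lower, 3 in edgeR, were 18 by DESeq2, 0 with no filter, 1 with the detection filter, 2 with DESeq2 size factors (Atp5j and Sdhb) and 0 to 3 without 1 library; members called higher, 0 in edgeR, were 2 by DESeq2, 1 by limma-voom and 0 to 1 without 1 library. The cause was not tested, though fewer libraries or other genes enter some of these fits.

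Replicate numbers recur in both tissues, but same-numbered libraries did not deviate together (correlations of 0.00175 to 0.0105, and 1 of 4 skin libraries correlated best with its own number). With the replicate block the counts were 36 genes higher and 14 lower, and 0 members lower.

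Taking the median member in place of the sum gave log2 ratios of -1.42 for complex II, -1.25 for complex III and -1.10 for complex V, and complex V without Atp5a1 and Atp5b gave -0.75. Without 1 library at a time the sums gave -1.50 to -1.26 for complex I, -1.09 to -0.81 for II, -1.04 to -0.77 for III, -1.03 to -0.87 for IV and -0.23 to -0.06 for V.

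Over the 40 tested genes chosen by the naming rule, 482 recomputed values kept direction and side of the threshold, 71 values of 7 genes lost the call, 14 of 10 genes gained one, and 26 of 9 genes changed sign. Atp5sl became -2.44 with limma-voom, -0.92 with the block and -0.82 to 0.64 without 1 library; Cyc1 -0.0163, -0.038 and -0.36 to 0.38; Nrf1 -1.94, -0.0607 and -0.11 to 0.71. Uqcrh became 0.0364 with DESeq2 size factors and DESeq2, 0.0445 with upper-quartile scaling and limma-voom, 0.00987 with no filter, 0.0103 with the detection filter, 0.00543 with the block, and -0.16 to 0.18 without 1 library. Only without 1 library did Cox4nb (-0.0655 to 1.15), Cox7a2l (-1.35 to 0.15), Sdhd (-0.39 to 0.53), Tfam (-0.84 to 0.33) and Uqcrfs1 (-0.0155 to 0.41) change sign. Levels under 3 counts, 0.292 to 0.454 CPM, were below detection. Members at 0 numbered 8.75 ± 1.26 per skin library and 2 ± 1.15 per spleen library, at mean totals of 8517740 and 8069440 expected counts. The skin libraries were thus not shallower in total counts. They detected fewer genes, 5302 to 6012 against 6415 to 10094 in spleen. What this adds to the members at 0 was not tested.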
